A study of Homo sapiens with 11 samples.

Results

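The genes described here are the ATP-binding cassette (ABC) transporters of SCC9 cells, together with the copper-transporting ATPases ATP7A and ATP7B. They were chosen by symbol: subfamilies ABCA to ABCG followed by a digit, plus the copper ATPases, where a probe set carried that symbol alone. This gave 33 of the 8549 genes measured, each represented by the probe set whose mean over the arrays was highest. By textbook role, 9 were drug efflux pumps, 2 copper ATPases, 9 cholesterol and phospholipid carriers, 3 organelle members of subfamily B, 1 the bile salt pump ABCB11, 2 potassium channel regulators, 3 members of subfamily D and 4 non-transporting translation factors.

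SCC9, the single cell line studied here, is an established human line derived from squamous carcinoma of tongue. Its RNA was hybridised to 11 Affymetrix U133A arrays: 3 of untreated control dishes, 3 with cisplatin at 0.5 µmol/L, 3 with nimesulide at 100 µmol/L and 2 with both agents at these doses (the combination). Cisplatin is a platinum drug that crosslinks DNA, and nimesulide is an anti-inflammatory inhibitor of cyclooxygenase-2. The replicates carry the letters A, B and C, combination C was not analysed here, and the duration of treatment was not given in the sources used here.

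ABC transporters use ATP to move drugs, conjugates, lipids, peptides or metals across membranes. Efflux pumps of subfamilies B, C and G lower the intracellular level of many anticancer drugs, and ABCC2 and the copper ATPases have been tied to platinum export. ABCE1 and the ABCF proteins carry the ATP-binding domains but no membrane domain, and act at the ribosome.

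Of the squamous epithelial markers, 8 of 9 measured, among them KRT5, DSP, CDH1 and SFN, had means at or above the median probe set of the table, and KRT14 lay below it. Of the markers of other cells, DCN among 6 fibroblast genes and CD3E among 4 leukocyte genes lay above that median, and 0 of 4 endothelial and 0 of 3 hepatocyte genes did. The summed log2 level of the squamous list spanned 71.5 to 73.8 in control, 71.9 to 74.5 in cisplatin, 71.1 to 74.0 in nimesulide and 72.7 to 73.7 in combination arrays. In such a sum opposite changes cancel. In the combination against control DSP differed by 0.38 and KRT5 by -0.32, and in nimesulide against cisplatin KRT14 differed by -0.87. The limma adjusted p of that KRT14 difference was 0.480, and 0.0216 with the replicate letter as a block. Array medians lay between 5.37 and 5.43 on the log2 scale, and arrays of a treatment correlated at 0.996 to 0.998 over all probe sets. The labels do not say that the replicates were separate cultures, so the spread that the p-values measure may be technical.

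Promoter sequences from RefSeq (GRCh38.p14), from 250 bases before to 50 bases after a transcript start, were used for 26 of the 33 genes. ABCG2, which had the smallest p-value of the group in several comparisons below, has 5 starts among them. The start with the antioxidant response core, the start with the stress-response core and 1 of the 3 with xenobiotic response cores are shown, and the start of ABCC4, second to ABCG2 in the pooled nimesulide comparison, is set beside them. All lie on the minus strand, and capitals mark matches, on either strand, to 3 cores: TGACNNNGC (antioxidant response element, bound by NRF2), GCGTG (xenobiotic response element, bound by AHR) and TGATGNAA (composite element bound by ATF4 and CEBP factors).
ABCG2 chr4:88159241-88159540: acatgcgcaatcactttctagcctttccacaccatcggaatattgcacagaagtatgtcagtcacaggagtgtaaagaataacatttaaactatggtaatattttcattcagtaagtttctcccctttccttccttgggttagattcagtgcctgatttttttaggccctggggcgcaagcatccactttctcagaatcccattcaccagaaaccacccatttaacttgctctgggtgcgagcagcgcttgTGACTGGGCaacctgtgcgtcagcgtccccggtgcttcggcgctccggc
ABCG2 chr4:88158860-88159159: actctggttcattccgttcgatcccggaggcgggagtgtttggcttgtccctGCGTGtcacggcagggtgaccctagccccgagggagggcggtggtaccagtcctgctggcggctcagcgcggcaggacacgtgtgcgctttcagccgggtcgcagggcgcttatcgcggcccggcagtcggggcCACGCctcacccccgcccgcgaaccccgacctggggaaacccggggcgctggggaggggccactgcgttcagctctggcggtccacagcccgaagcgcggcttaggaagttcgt
ABCG2 chr4:88231577-88231876: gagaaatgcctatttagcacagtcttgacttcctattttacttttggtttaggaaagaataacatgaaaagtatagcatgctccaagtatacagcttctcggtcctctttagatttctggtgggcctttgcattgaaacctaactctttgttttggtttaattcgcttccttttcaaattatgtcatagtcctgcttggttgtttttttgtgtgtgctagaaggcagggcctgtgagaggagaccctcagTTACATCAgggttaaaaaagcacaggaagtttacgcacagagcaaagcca
ABCC4 chr13:95301402-95301701: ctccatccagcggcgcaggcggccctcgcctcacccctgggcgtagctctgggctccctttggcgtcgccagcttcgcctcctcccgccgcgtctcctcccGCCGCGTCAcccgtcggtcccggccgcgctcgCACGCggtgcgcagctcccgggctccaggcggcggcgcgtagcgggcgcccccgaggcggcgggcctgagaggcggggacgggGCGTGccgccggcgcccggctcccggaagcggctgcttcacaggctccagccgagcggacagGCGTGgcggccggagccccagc
In the first ABCG2 sequence the TGACNNNGC match lies at bases 2 to 10 of the transcript. The second holds GCGTG from base -198 and, on the other strand, from base -64, and the third holds TGATGNAA on the other strand at bases 1 to 8. ABCC4 holds TGACNNNGC on the other strand from base -149 and GCGTG at 3 places. TGACNNNGC was present in 27.5% of the 40 promoters of the group against 13.3% of all 35116 promoters, GCGTG in 57.5% against 36.5%, and TGATGNAA in 5% against 3.62%. The 40 are transcript starts of 26 genes, and some windows overlap, so a site can count more than once. Base composition was not matched, and no enrichment was tested. The matches are letters in a window and no measure of binding. No motif overlapped another in the 4 sequences.

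The arrays ask whether either agent, or the combination of both, alters the transcript level of drug pumps. ABCG2, the breast cancer resistance protein and a pump for many cytotoxic drugs, gave the clearest separation by nimesulide. No filter on low values was used, so all 33 genes were tested. Its log2 intensity was 8.34, 8.42 and 8.29 in control A, B and C, 8.14, 8.30 and 8.31 in cisplatin A, B and C, 8.49, 8.58 and 8.57 in nimesulide A, B and C, and 8.53 and 8.67 in combination A and B. The 5 arrays with nimesulide, at 8.49 to 8.67, all lay above the 6 without it, at 8.14 to 8.42. Among the 33 genes, ABCG2 was the single one whose arrays separated by nimesulide in this way, and none separated downward, where 0.439% of all 16383 probe sets separated upward and 0.36% downward. Levels in bulk RNA do not tell fewer cells that express a gene from less RNA per cell.

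Pooled over both backgrounds (the mean of nimesulide minus control and combination minus cisplatin), ABCG2 was 0.27 higher with nimesulide on the log2 scale (SE 0.05, 95% interval 0.16 to 0.39), a 1.21-fold difference (1.12 to 1.31). This missed the threshold over all probe sets, with a limma adjusted p of 0.0706, so 0 of the 33 genes were called in this contrast, where 0.153% of all probe sets were. At an unadjusted p under 0.05, 4 of the 33 were higher and 0 lower (4.41% and 3.15% of all probe sets). With the replicate letter as a block the difference was 0.28 and the adjusted p 0.0198, so ABCG2 then passed, where 0.525% of all probe sets did. The ABCG2 difference between the combination and cisplatin was already known from these data when the group was chosen, and ABCG2 is represented by 1 probe set.

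In the separate contrasts, ABCG2 was 0.20 higher in nimesulide than in control (SE 0.07, limma adjusted p = 0.906), and the same-letter differences were 0.15, 0.16 and 0.28 for A, B and C. It was 0.35 higher in the combination than in cisplatin (SE 0.08, adjusted p = 0.347), with same-letter differences of 0.39 for A and 0.37 for B. Every same-letter pair thus pointed the same way. Cisplatin alone gave a difference of -0.10 (SE 0.07), with same-letter values of -0.20, -0.12 and 0.02. The nimesulide difference with cisplatin exceeded that without it by 0.16 (95% interval -0.07 to 0.38, limma adjusted p = 0.963), so a difference between the backgrounds was not detectable with these arrays. Comparisons that share control or cisplatin arrays are not independent of each other.

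**Figure D1:**
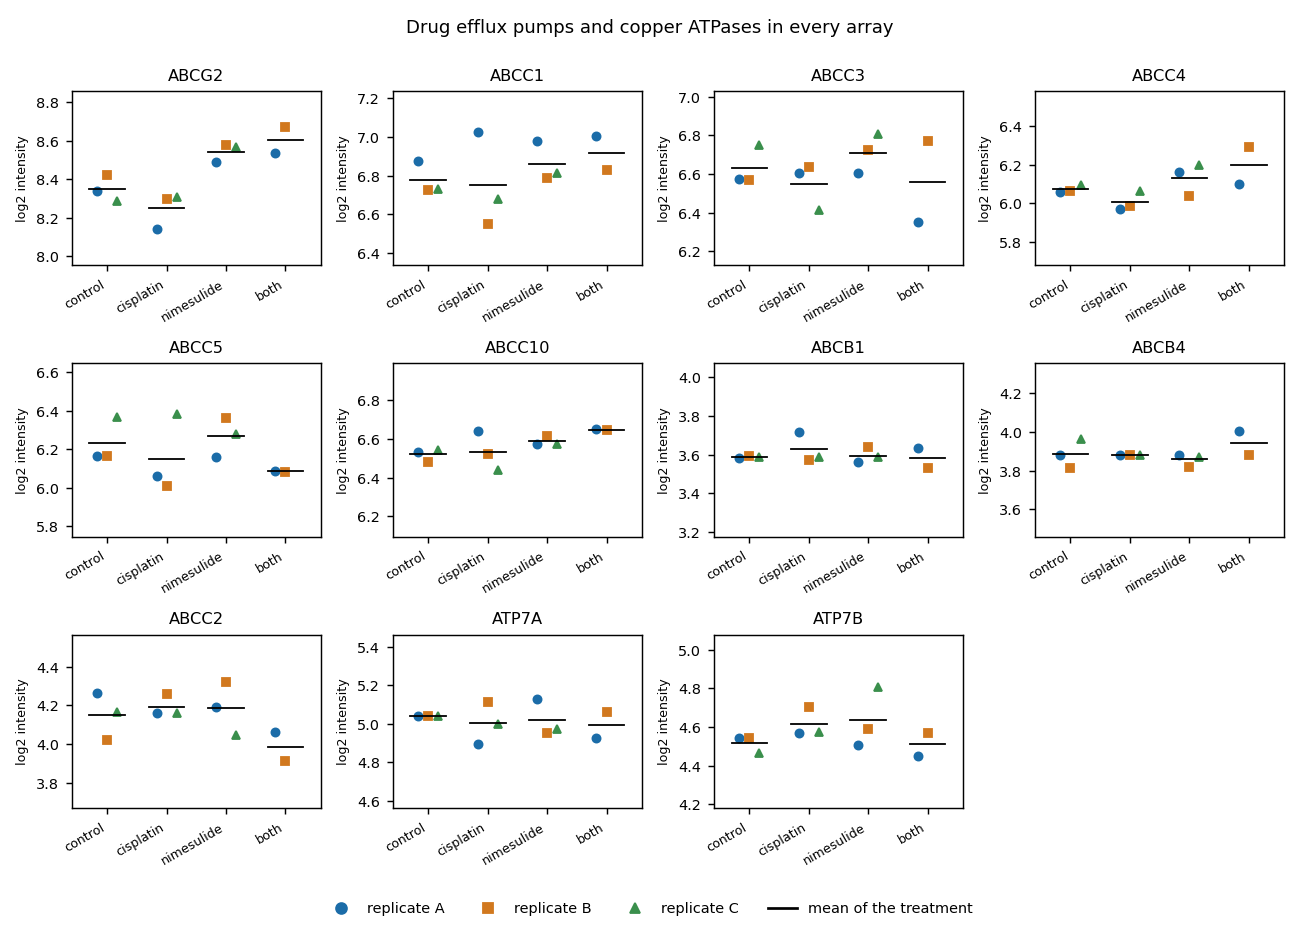
Log2 intensity of the 9 drug efflux pumps and the 2 copper ATPases in each array by treatment, where each symbol is a replicate letter, bars are treatment means and every panel spans 0.9 log2 units. For ABCG2 the 5 arrays with nimesulide, 8.49 to 8.67, lie above the other 6, while in the other panels the treatments overlap in part.

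ABCC4, which exports cyclic nucleotides, prostanoids and nucleoside analogues, had log2 intensities of 6.06, 6.06 and 6.10 in control, 5.97, 5.98 and 6.06 in cisplatin, 6.16, 6.04 and 6.20 in nimesulide, and 6.10 and 6.29 in the combination. Both combination arrays lay above all 3 cisplatin arrays, and nimesulide B lay just below the control arrays. Its pooled nimesulide difference was 0.12 (SE 0.05, limma adjusted p = 0.642). The combination exceeded cisplatin by 0.19 (SE 0.08, adjusted p = 0.652). Without combination B these differences were 0.08 and 0.09, and without combination A the second was 0.29.

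ABCC10, an exporter of taxanes and vinca alkaloids among other drugs, had log2 intensities of 6.53, 6.48 and 6.54 in control, 6.64, 6.52 and 6.44 in cisplatin, 6.57, 6.62 and 6.57 in nimesulide, and 6.65 in both combination arrays. All 5 same-letter pairs were higher with nimesulide, although cisplatin A overlapped the arrays with nimesulide. The pooled difference was 0.09 (SE 0.05, adjusted p = 0.697), and its other probe set gave 0.05. Higher in all 5 same-letter pairs were 3 of the 33 genes, ABCC10, ABCE1 and ABCG2, and none was lower in all 5, where 4.46% and 3.34% of all probe sets were.

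ABCC1, the multidrug resistance protein that exports glutathione conjugates, had log2 intensities of 6.88, 6.73 and 6.73 in control, 7.03, 6.55 and 6.68 in cisplatin, 6.98, 6.79 and 6.82 in nimesulide, and 7.0 and 6.83 in the combination. The spread within cisplatin was wider than any difference between treatment means, and letter A was the highest in every treatment. The pooled nimesulide difference was 0.12 (SE 0.08, adjusted p = 0.764), and it was 0.003 on the other ABCC1 probe set. It was 0.19 without cisplatin A, 0.07 without cisplatin B and 0.08 without combination A.

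ABCC3, an exporter of bile salts and glucuronides, was at 6.57, 6.57 and 6.75 in control, 6.60, 6.64 and 6.41 in cisplatin, 6.60, 6.72 and 6.81 in nimesulide, and 6.35 and 6.77 in the combination, all log2 intensities. The 2 combination arrays spanned nearly the whole range of the gene. Its pooled nimesulide difference was 0.04 (SE 0.08) on this probe set and 0.15 (SE 0.06, limma adjusted p = 0.600) on the other.

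ABCC5, which exports cyclic nucleotides and nucleotide analogues, was at 6.17, 6.17 and 6.37 in control, 6.06, 6.01 and 6.38 in cisplatin, 6.16, 6.36 and 6.28 in nimesulide, and 6.09 and 6.08 in the combination, in log2 intensity. The combination arrays lay below the control arrays and between the cisplatin ones. Its pooled cisplatin difference was -0.13 (SE 0.07, limma adjusted p = 0.740).

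ABCC2, the canalicular pump for conjugates that also exports platinum conjugates, was dim. Its log2 intensities were 4.26, 4.02 and 4.16 in control, 4.16, 4.26 and 4.16 in cisplatin, 4.19, 4.32 and 4.05 in nimesulide, and 4.06 and 3.91 in the combination. The combination arrays lay below all cisplatin arrays, with a mean difference of -0.21 (SE 0.09, limma adjusted p = 0.692) that was -0.13 without combination B. Against control the groups overlapped, with cisplatin at 0.05 (95% interval -0.14 to 0.23).

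ABCB1, the P-glycoprotein that is the classical multidrug pump, was measured at 3.53 to 3.72 over all 11 arrays, and its pooled nimesulide difference was -0.02 (95% interval -0.12 to 0.09). ABCB4, a phospholipid floppase of the bile canaliculus closely related to ABCB1 and counted here with the pumps, was at 3.81 to 4.0, with a pooled nimesulide difference of 0.02 (-0.09 to 0.12). Both lay well under the table median of 5.4. RMA gave ABCB4 an identical value in 6 of the 11 arrays, and 20 of the 33 genes, or 60.6%, had at least 1 value repeated between arrays, against 54.1% of all probe sets.

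As a class, 8 of the 9 efflux pumps had a higher mean in nimesulide than in control, with a median log2 difference of 0.06. This compares with 21 of all 33 genes, with a median of 0.02, and with 48.8% of all genes. Among the 13 genes of the group at or above the table median, pumps included, 12 were higher, with a median of 0.07. Both of these sets hold the pumps, so they cannot tell whether the lean was particular to the pumps. Of the classes without pumps, 3 of 4 non-transporting factors and 4 of 9 lipid carriers were higher. None of the 9 pumps was called (0.0061% of all probe sets were). Of them 1, ABCG2, had an unadjusted p under 0.05, as 2.72% of probe sets did upward and 2.71% downward. The nimesulide arrays of ABCG2 and ABCC10 all lay above the control arrays, as in 4.88% of probe sets, and those of ABCA1 and ABCB9 all lay below, as in 4.91%. For cisplatin against control, 3 of the 9 pumps were higher and 6 lower, with a median of -0.03. In the combination against cisplatin, 6 of the 9 were higher, with a median of 0.06.

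The copper ATPases move copper into the secretory pathway and can bind platinum. ATP7A was at 5.04 in all 3 control arrays, 4.90, 5.12 and 5.00 in cisplatin, 5.13, 4.95 and 4.97 in nimesulide, and 4.93 and 5.06 in the combination, in log2 intensity. Every treated group held arrays on both sides of the control values. Its pooled cisplatin difference was -0.03 (95% interval -0.15 to 0.09).

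ATP7B was at 4.54, 4.54 and 4.46 in control, 4.57, 4.71 and 4.57 in cisplatin, 4.51, 4.59 and 4.81 in nimesulide, and 4.45 and 4.57 in the combination. All 3 cisplatin arrays lay above the control arrays, by 0.10 on average (SE 0.08, limma adjusted p = 0.968) and by 0.05 without cisplatin B. The combination arrays lay on either side of the control range, and the pooled cisplatin difference was -0.01 (95% interval -0.14 to 0.12).

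**Figure D2:**
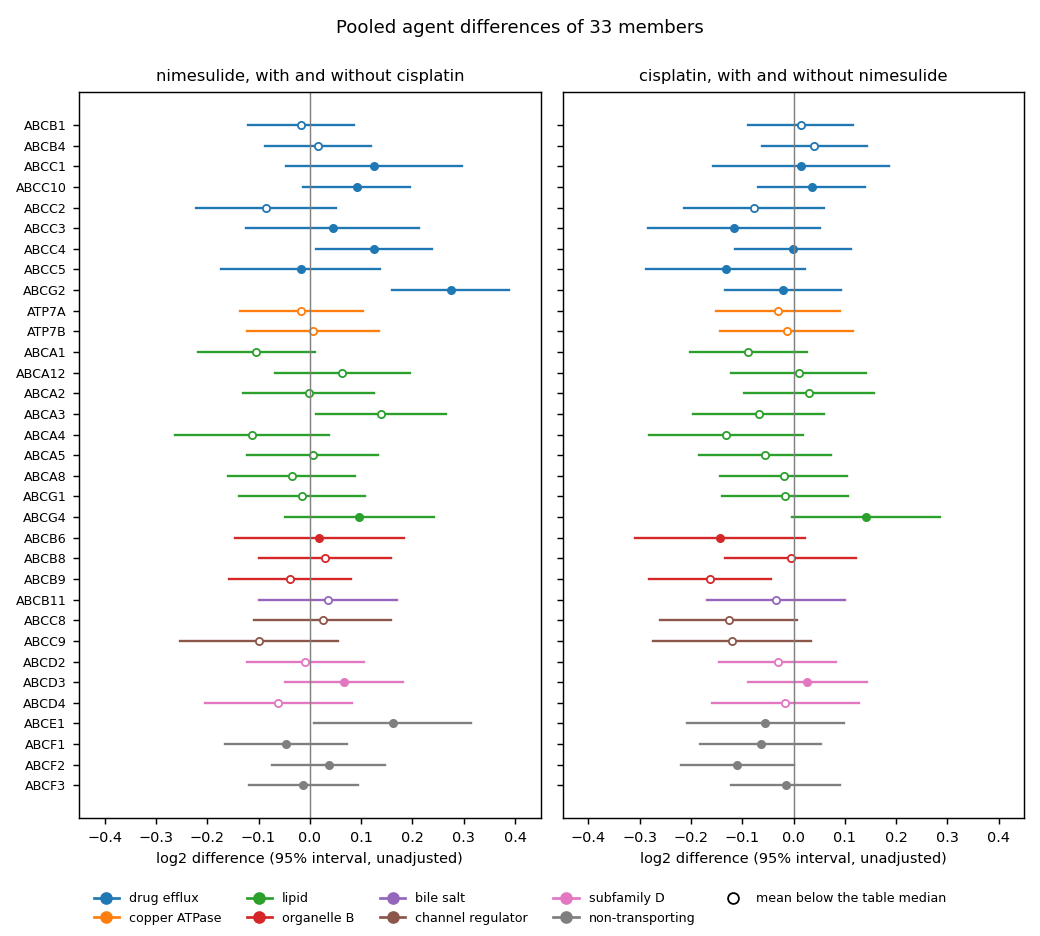
Pooled nimesulide difference (left) and pooled cisplatin difference (right) of the 33 genes on the log2 scale, with points for the estimate, lines for the unadjusted 95% interval, colours for the class and open points for genes whose mean lies below the table median. ABCG2 stands at 0.27 on the left, the farthest from 0 of the group, and ABCB9 at -0.16 on the right.

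With cisplatin alone, 0 of the 33 genes were called, as were 0% of all probe sets, and 10 were higher and 23 lower than control, with a median of -0.04 beside -0.01 for all genes, of which 42.6% were higher. At an unadjusted p under 0.05, 0 were higher and 1 lower (1.47% and 3.17% of all probe sets). The cisplatin arrays of ATP7B lay above all control arrays, as in 3.32% of probe sets, and those of ABCB9 and ABCF2 lay below, as in 5.8%. ABCB9 was the gene with the small p, a lysosomal peptide transporter related to the antigen-processing transporter. Its log2 intensity was 4.74, 4.72 and 4.90 in control, 4.63, 4.47 and 4.46 in cisplatin, 4.58, 4.66 and 4.70 in nimesulide, and 4.63 and 4.54 in the combination. The cisplatin arrays lay below every control array, and so did the nimesulide and combination arrays.

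The ABCB9 difference between cisplatin and control was -0.27 (SE 0.07, limma adjusted p = 0.968), with same-letter values of -0.11, -0.25 and -0.45. The nimesulide difference was -0.14 (SE 0.07) and the combination difference -0.20 (SE 0.08, adjusted p = 0.574). Its other probe set gave -0.09 for cisplatin (SE 0.08), so the size rested on the probe set used. The mean of ABCB9 lay below the table median.

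ABCB6, a porphyrin transporter of mitochondrial and other membranes, spanned 5.51 to 5.66 in control and 5.30 to 5.68 in cisplatin, and its pooled cisplatin difference was -0.14 (SE 0.08, adjusted p = 0.737). ABCB8, of the mitochondrial inner membrane, spanned 5.02 to 5.26 in control and 4.90 to 5.09 in cisplatin. In both genes the treatments overlapped.

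The cholesterol and phospholipid carriers were dim, with 8 of 9 below the table median, and none was called in any of the 9 contrasts. ABCA1, which loads cholesterol and phospholipid onto apolipoprotein A-I, was at 4.14, 4.15 and 4.14 in control, 4.07, 4.05 and 4.19 in cisplatin, 4.09, 4.10 and 4.06 in nimesulide, and 3.83 and 4.07 in the combination. The nimesulide and combination arrays all lay below the control arrays, and combination A was the lowest of the 11. The combination difference from control was -0.19 (SE 0.08, limma adjusted p = 0.574), -0.07 without combination A and -0.31 without combination B. The 2 other ABCA1 probe sets gave -0.06 and -0.001.

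ABCA4, the retinoid flippase of photoreceptors, was at 5.13, 4.99 and 5.35 in control, 4.91, 4.86 and 5.16 in cisplatin, 4.99, 4.99 and 5.01 in nimesulide, and 4.93 and 4.89 in the combination. It was lower with cisplatin in all 5 same-letter pairs, as was ABCF2, and these 2 of the 33 genes compare with 5.63% of all probe sets. None was higher in all 5, where 2.94% of probe sets were. The ABCA4 difference between the combination and control was -0.24 (SE 0.10, limma adjusted p = 0.591), and -0.15 without control C.

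ABCA3, the lamellar-body phospholipid transporter, was at 4.56, 4.52 and 4.56 in control, 4.46, 4.32 and 4.56 in cisplatin, 4.51, 4.72 and 4.73 in nimesulide, and 4.56 and 4.67 in the combination. Nimesulide A lay below the control arrays and nimesulide B and C above them. Its pooled nimesulide difference was 0.14 (SE 0.06, limma adjusted p = 0.644).

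ABCG4, a sterol exporter best known from brain, was at 5.66, 5.61 and 5.76 in control, 5.63, 5.62 and 5.94 in cisplatin, 5.79, 5.70 and 5.56 in nimesulide, and 5.92 and 5.90 in the combination. The combination arrays lay above all control and nimesulide arrays, while cisplatin C was higher still. The difference from control was 0.24 (SE 0.10, limma adjusted p = 0.585). ABCG1, the sterol exporter of macrophages, spanned 4.22 to 4.27 in control and 4.08 to 4.36 in nimesulide, with overlap.

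The remaining lipid carriers gave narrow ranges. ABCA12, which loads lipid into the lamellar granules of keratinocytes, spanned 3.18 to 3.51 in log2 intensity over the 11 arrays, and ABCA2, a lysosomal lipid transporter, 5.17 to 5.43. ABCA5 spanned 4.76 to 5.06 and ABCA8 3.03 to 3.28. In none of these 4 genes did any treatment lie clear of the control arrays.

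**Figure D3:**
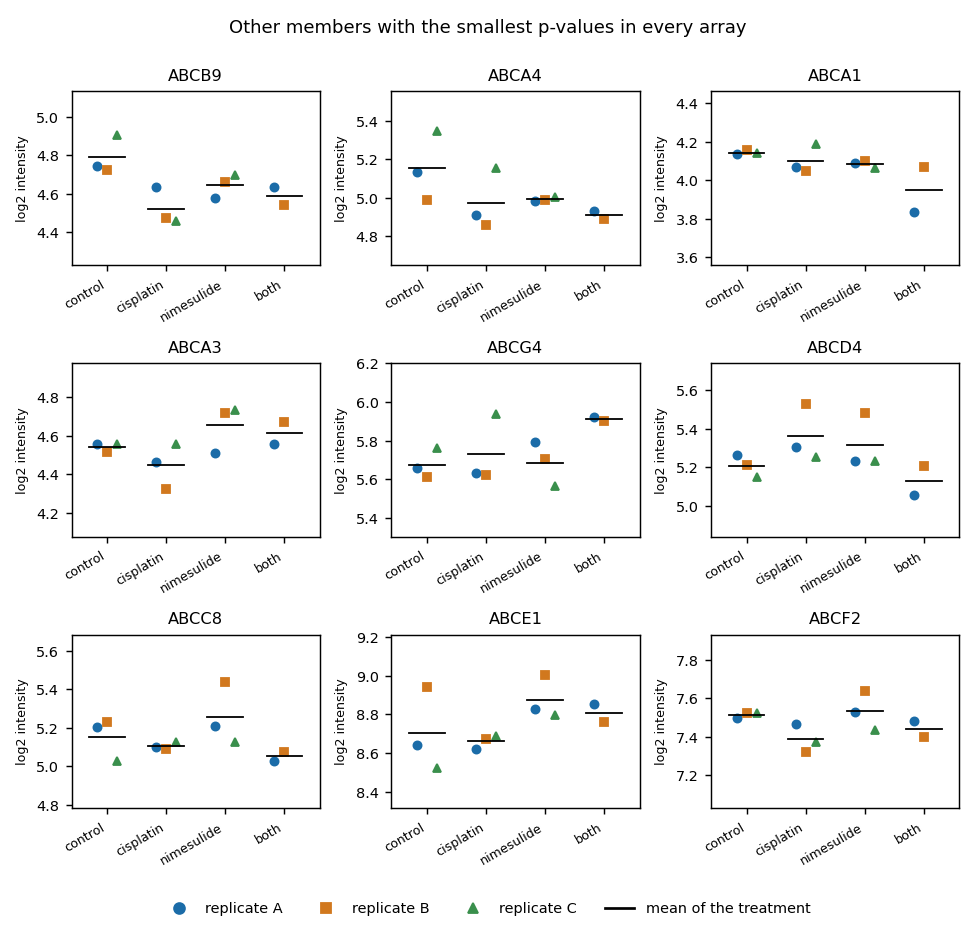
Log2 intensity in each array of 9 other genes that were among those with the smallest p-values in at least 1 contrast, by treatment, with symbols for the replicate letters and bars for treatment means, each panel spanning 0.9 log2 units. The ABCB9 cisplatin arrays, 4.46 to 4.63, lie below its control arrays, 4.72 to 4.90. ABCA1, ABCA4, ABCF2 and ABCG4 also hold a treatment that lies clear of control, whereas in the remaining panels every treatment overlaps control.

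ABCD3, a peroxisomal importer of branched-chain and long-chain fatty acyl-CoA, was at 8.16 to 8.38 in control, 8.29 to 8.39 in cisplatin, 8.35 to 8.44 in nimesulide, and 8.37 and 8.44 in the combination. Its pooled nimesulide difference was 0.07 (95% interval -0.05 to 0.18). Control C was the lowest of the 11 arrays. ABCD2, its relative for very long chains, was dim, at 2.83 to 3.05.

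ABCD4, a lysosomal protein of vitamin B12 export, was at 5.26, 5.21 and 5.15 in control, 5.31, 5.53 and 5.25 in cisplatin, 5.23, 5.48 and 5.23 in nimesulide, and 5.06 and 5.20 in the combination. The combination arrays lay below all cisplatin and nimesulide arrays. The interaction (the nimesulide difference in the presence of cisplatin less that in its absence) was -0.34 (SE 0.13, limma adjusted p = 0.963) and the smallest p of the 33 genes in that contrast, where 0 of them and 0% of all probe sets were called. The other ABCD4 probe set gave an interaction of the opposite sign, 0.33 (SE 0.12), so the direction for this gene depended on the probe set.

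ABCC8 and ABCC9, the sulfonylurea receptors that regulate potassium channels, were dim. ABCC8 was at 5.03 to 5.23 in control, 5.09 to 5.13 in cisplatin, 5.13 to 5.44 in nimesulide, and 5.03 and 5.08 in the combination, and the combination arrays lay below all nimesulide arrays, with a mean difference of -0.21 (SE 0.09, limma adjusted p = 0.725). It was -0.12 without nimesulide B, and 0.0008 on the other ABCC8 probe set. ABCC9 spanned 3.73 to 4.25 over all arrays, with combination A the lowest. ABCB11, the hepatic bile salt export pump, spanned 3.46 to 3.84 over all arrays.

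ABCE1, the ribosome recycling factor, had log2 intensities of 8.64, 8.94 and 8.52 in control, 8.62, 8.67 and 8.69 in cisplatin, 8.83, 9.0 and 8.80 in nimesulide, and 8.85 and 8.76 in the combination. All 3 nimesulide arrays and both combination arrays lay above every cisplatin array, but control B overlapped them. The pooled nimesulide difference was 0.16 (SE 0.07, limma adjusted p = 0.654), and 0.05 on its other probe set.

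ABCF2, a cytosolic member of the family with no membrane domain, was at 7.5, 7.52 and 7.52 in control, 7.47, 7.32 and 7.38 in cisplatin, 7.53, 7.64 and 7.44 in nimesulide, and 7.48 and 7.4 in the combination. The cisplatin and combination arrays all lay below the control arrays, and nimesulide C did too. The pooled cisplatin difference was -0.11 (SE 0.05, limma adjusted p = 0.721), and its 4 other probe sets ranged from -0.10 to -0.004. ABCF1 and ABCF3, which act in translation, spanned 8.36 to 8.58 and 7.05 to 7.25 over all arrays.

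In the remaining contrasts again 0 of the 33 genes were called. For the combination against control 0% of all probe sets were called. At an unadjusted p under 0.05, 2 genes were higher and 3 lower (3.47% and 4.43% of all probe sets), namely ABCG2 and ABCG4 above and ABCA1, ABCA4 and ABCB9 below. The combination arrays lay clear of all control arrays in 4 genes upward and 7 downward (9.42% and 13.7%). With 2 arrays in the group, such separation is common in the whole table.

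For the combination against cisplatin 0% were called. ABCG2 and ABCC4 were higher and ABCC2 and ABCD4 lower at an unadjusted p under 0.05 (4.03% and 3.06% of all probe sets), and the arrays did not overlap in 4 genes upward and 4 downward (10.7% and 9.73%). For the combination against nimesulide 0% were called, ABCG4 was higher and ABCC8 lower at that level (2.37% and 4.42%), and 2 and 6 genes did not overlap (8.51% and 13%). For nimesulide against cisplatin 0.0061% were called. ABCG2, ABCA3 and ABCE1 were higher at that level and none lower (4.19% and 2.39%), and 2 and 0 genes did not overlap (6.59% and 3.5%).

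For the pooled cisplatin difference 0% of all probe sets were called, and 0 genes were higher and 1, ABCB9, lower at an unadjusted p under 0.05 (2.41% and 4.47%). Of the 33 genes 25 were lower and 8 higher, with a median of -0.03 beside -0.02 for all genes, of which 40.7% were higher. None of the 33 had its 5 arrays with cisplatin clear of the 6 without it, where 0.165% of probe sets did upward and 0.305% downward. In the interaction, ABCD4 alone had an unadjusted p under 0.05, with 0 genes higher and 1 lower (2.3% and 2.26%).

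**Figure D4:**
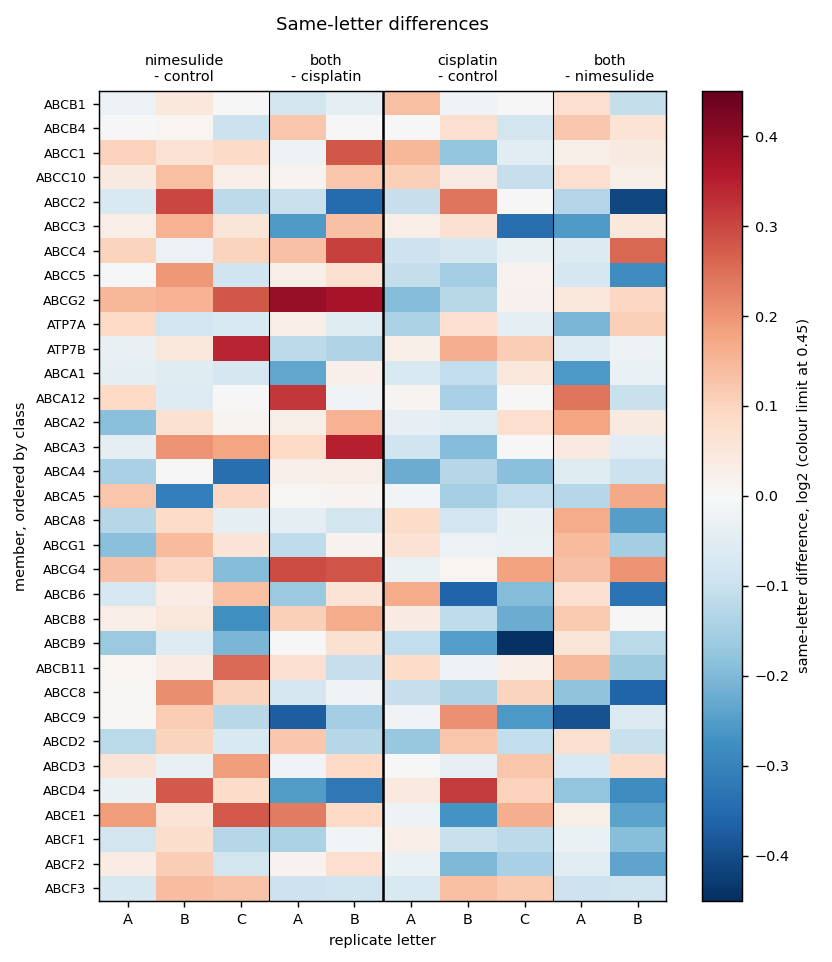
Same-letter log2 differences of the 33 genes, with rows ordered by class, columns for the letters of each comparison, and colour from -0.45 (blue) to 0.45 (red). ABCG2 is red in all 5 nimesulide columns, at 0.15 to 0.39, while most rows hold both colours.

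Genes that supply or steer the pumps were described from lists of textbook members. Of the 23 genes of glutathione supply and conjugation, which feed the ABCC pumps, 18 were measured, and 1 was called higher and 0 lower in the pooled nimesulide contrast, in which 0.153% of all probe sets were called. That gene, SLC7A11, the cystine importer of glutathione synthesis, had log2 intensities of 6.46, 6.37 and 6.39 in control, 6.59, 6.4 and 6.35 in cisplatin, 7.02, 6.63 and 7.06 in nimesulide, and 7.16 and 7.06 in the combination. All 5 arrays with nimesulide lay above the other 6. The SLC7A11 difference was 0.58 (SE 0.08, limma adjusted p = 0.0088). SLC3A2, its partner chain, was 0.18 higher (SE 0.05, adjusted p = 0.258), and the median of the list was -0.04.

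Of 29 regulators of ABC transporter genes, 24 were measured and 0 were called in the pooled nimesulide contrast. SREBF1, a master regulator of lipid synthesis, was at 7.77, 7.17 and 7.65 in control, 7.58, 7.09 and 7.37 in cisplatin, 7.33, 6.53 and 7.02 in nimesulide, and 7.17 and 7.01 in the combination. Letter B was the lowest in every treatment, and each same-letter array with nimesulide was below its partner without it. The pooled difference of SREBF1 was -0.41 (SE 0.14, limma adjusted p = 0.498), and with the replicate block the adjusted p was 0.0245.

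Of 21 genes of copper and platinum uptake and handling, 13 were measured and 0 were called in either direction in any contrast. SLC31A1, the copper importer that can carry cisplatin, differed by 0.12 (SE 0.06, adjusted p = 0.660) in the pooled nimesulide contrast. Of 13 symbols listed for membrane and trafficking partners of the pumps, aliases included, 9 were measured and 0 were called. Of 19 symbols listed for ribosome partners of ABCE1 and the ABCF factors, aliases included, 11 were measured and 0 were called. In the pooled nimesulide contrast 4 of the 11 were higher and 0 lower at an unadjusted p under 0.05. Over all probe sets 4.41% were higher and 3.15% lower, so the upward share was larger in this list, and no enrichment was tested. Among the 4 was EIF2S3, an initiation factor subunit, at 0.23 (SE 0.07, limma adjusted p = 0.418). That value averages 0.06 for nimesulide against control and 0.40 for the combination against cisplatin.

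The ABC family genes with other symbols were TAP1, TAP2 and CFTR. TAP1, which carries peptides for antigen presentation, was at 7.23, 7.85 and 7.68 in control, 7.36, 7.80 and 7.61 in cisplatin, 6.97, 7.58 and 7.25 in nimesulide, and 7.22 and 7.42 in the combination. The letters differed as much as the treatments, and each array with nimesulide lay below its same-letter partner. The pooled nimesulide difference was -0.30 for TAP1 (SE 0.12, limma adjusted p = 0.636), -0.24 for TAP2 (SE 0.14) and -0.04 for CFTR (SE 0.06). With the replicate block the limma adjusted p was 0.0722 for TAP1, 0.238 for TAP2 and 0.905 for CFTR, so none was called.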

How the data were processed

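Total RNA of SCC9 cells was measured on U133A arrays, 1 per sample. Per the labels, the authors normalised the arrays with RMA, which gave the deposited log2 intensity of each probe set. Its version, and the set of arrays it was run on, are not given in the sources used here. RMA equalises the arrays, so a shift of all transcripts would not show, and it narrows differences of dim probe sets.

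All 16383 probe sets were fitted with limma 3.58.1 in R 4.3.3 (a mean per treatment, 11 arrays, 7 residual degrees of freedom, no filter), with two-sided tests and Benjamini-Hochberg adjustment over the table within each of 9 contrasts. Calls were made at an adjusted p under 0.05. Precision is limited by the few arrays: the median standard error was 0.08 for 3 against 3. Platform annotation gave 1 symbol for 14045 probe sets, several for 792 and none for 1546. Named genes were all measured efflux pumps and copper ATPases, the genes of the group with the smallest p in each contrast, and the leading genes of the listed pathways. The group and the lists were chosen with earlier results of these data known. The fit was tested on simulated data with independent noise and no letter effect, so that test does not bear on differences between letters.

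The deposited protocol lists RNA sets A, B and C with all 4 treatments, without stating a shared culture or day. After removal of treatment means, same-letter arrays of control and a single agent correlated at 0.135 to 0.355 (6 pairs), cisplatin and nimesulide at 0.0831 to 0.232 (3 pairs), and cisplatin and the combination at 0.102 to 0.115 (2 pairs). Different-letter arrays gave -0.251 to -0.0424 for control and cisplatin, and -0.166 to 0.0190 for control and nimesulide. For nimesulide and the combination, same-letter pairs gave 0.0883 and 0.210, and different-letter pairs -0.210 to 0.144. The 2 combination arrays mirror each other once their mean is removed, so their same-letter and different-letter values are not independent. The letter was therefore kept as an alternative block (5 residual degrees of freedom). Other alternatives were quantile normalisation, median centring, a trended robust fit, probe sets at or above the median level, each gene's median over its probe sets, leaving out each array and, added after seeing the data, leaving out each letter. Promoters came from RefSeq GRCh38.p14.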

Additional observations from a re-analysis of the deposited data

How the results depend on the processing

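In the fit as reported, with no block and no trend, 0 of the 33 genes were called by limma in any of the 9 contrasts. In the pooled nimesulide contrast, where 4 had an unadjusted p under 0.05, the number called was 1 with the replicate block, 1 with the trended robust fit, 1 with probe sets at or above the median level and 1 with each gene's median over its probe sets. In each case the gene was ABCG2, at adjusted p-values of 0.0198, 0.0499, 0.0468 and 0.0360. The adjusted p was 0.0800 after quantile normalisation and 0.0662 after median centring. Leaving out 1 array gave differences of 0.24 to 0.31 and adjusted p-values of 0.0703 to 0.231, and leaving out letter A, B or C, added after seeing the data, gave 0.29, 0.26 and 0.27 with adjusted p-values of 0.466, 0.310 and 0.794. The cause was not tested. Of 186 counts of calls under alternatives, these 4 moved and 182 did not. The replicate block changed no other call of the 33 genes. Among 3621 single values, 242 changed sign, 7 of them from a main value over 0.1 in size, in ABCD4, ABCF2, ABCC3, ABCC5 and ABCC4. The limits are 2 or 3 arrays per treatment, 20 of 33 genes below the table median, and 15 genes with several probe sets that could disagree.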
